A study of Homo sapiens with 6 samples.

Results

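Genes of channels that membrane stretch opens were followed in RNA of small extracellular vesicles. There were 8 of them among the 38167 gene symbols of the count table. They were taken by name and function, with earlier results of these data known. They are PIEZO1 and PIEZO2, the TMEM63 genes TMEM63A, TMEM63B and TMEM63C, and the potassium channel genes KCNK2, KCNK4 and KCNK10. The vesicles came from spheroids of Cal27, an established line of human tongue squamous carcinoma cells, and the title of the series names Piezo1 as a vesicle cargo. Stiff libraries (n = 3) came from spheroids in Matrigel, a basement membrane gel, at 12 mg/mL, and soft libraries (n = 3) from spheroids in Matrigel at 3 mg/mL, both at day 14. No genotype or drug distinguished the groups. The single cell line, and a gel whose concentration of ligand protein changes together with its stiffness, limit both groups as models. Whether replicates came from separate cultures was given only as biological replicate in the labels, so p-values measure the spread between these libraries.

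PIEZO1 and PIEZO2 are very large membrane proteins with a central pore that lets cations, calcium among them, into the cell when the membrane is put under tension. PIEZO1 works in many epithelial, endothelial and blood cells, and PIEZO2 is best known from touch-sensing neurons and Merkel cells. The TMEM63 proteins are the animal relatives of the plant OSCA channels and are cation channels of high activation threshold. KCNK2 (TREK-1), KCNK4 (TRAAK) and KCNK10 (TREK-2) belong to the tandem-pore potassium channels, and their opening by stretch lets potassium out and lowers excitability.

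The genes differ in base composition, which matters below, and short coding stretches show it. The first pair is the end of the coding sequence of PIEZO1 (last 60 bases) and of PIEZO2 (last 60 bases), from GENCODE 29 transcripts on GRCh38, read 5′ to 3′ on the coding strand, with the stop codon in capitals.
PIEZO1: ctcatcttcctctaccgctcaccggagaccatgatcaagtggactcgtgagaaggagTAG
PIEZO2: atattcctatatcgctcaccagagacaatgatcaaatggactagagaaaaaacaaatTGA
Shifted by 3 bases, these windows were identical at 42 of 57 positions, while G and C made up 53.3% of the PIEZO1 window and 33.3% of the PIEZO2 window. Over the whole coding sequences, 63.9% of bases were G or C in PIEZO1 (7566 bp) and 47.2% in PIEZO2 (8334 bp). At the last position of codons the share was 87.0% in PIEZO1 and 57.8% in PIEZO2.

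The potassium channels show the same contrast at the place that makes them potassium channels. Each has a pair of pore loops with a selectivity filter, and the bases encoding the second filter are in capitals in 60-base windows of the same source.
KCNK2: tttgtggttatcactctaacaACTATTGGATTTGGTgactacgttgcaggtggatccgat
KCNK4: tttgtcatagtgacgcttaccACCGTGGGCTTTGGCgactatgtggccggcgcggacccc
KCNK10: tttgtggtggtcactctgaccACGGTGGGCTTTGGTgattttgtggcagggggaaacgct
KCNK2 and KCNK10 shared 44 of 60 bases, KCNK4 and KCNK10 shared 43, and KCNK2 and KCNK4 shared 36. The GC content of these windows was 41.7% in KCNK2, 61.7% in KCNK4 and 55.0% in KCNK10.

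All libraries held similar depth, between 2697502 and 2977837 counts in stiff and between 2445498 and 2545385 in soft. The 8 genes summed to 1501 to 1697 counts in stiff libraries and 1593 to 1629 in soft libraries. Before any TMM scaling, this is 0.0542% to 0.0570% of all counts in stiff and 0.0636% to 0.0651% in soft. A lower share in stiff was not particular to the 8. In CPM by library totals alone (counts scaled to library size), they summed to 542 to 570 in stiff and 636 to 651 in soft. On that scale 19254 protein-coding genes summed to 598600 to 619887 in stiff and 689667 to 731464 in soft. TMM factors were 0.893 to 0.929 in stiff and 1.06 to 1.13 in soft. Genes that epithelial cells are not known to use had counts too. Of 396 olfactory receptor genes, which belong to the nose, at least 99.5% had a count in every library. Their median was 10.4 to 11.1 counts per kb of exon in stiff libraries and 11.7 to 12.2 in soft. The 10 squamous epithelial markers had medians of 17.7 to 19.1 per kb in stiff and 16.6 to 19.5 in soft, with none at 0. The 7 sensory neuron markers had 23.0 to 27.3 in stiff and 24.8 to 28.6 in soft, also with none at 0. The squamous markers therefore did not stand above the sensory neuron markers per kb of exon. The neuron list was richer in G and C (median 58.5% against 52.2%), and so was the erythroid list (55.1%). The fibroblast (41.7%) and immune (48.5%) lists were poorer. The part of GC content in the levels of the marker lists was not tested. Squamous medians did lie above those of fibroblast (8.01 to 8.94 in stiff, 8.01 to 8.63 in soft), immune (7.37 to 11.3, 8.51 to 14.2) and erythroid markers (7.97 to 14.5, 8.90 to 11.2). Endothelial medians were 15.1 to 16.9 in stiff and 15.8 to 18.3 in soft, and Merkel medians were 12.4 to 18.1 and 12.7 to 16.8. Among the squamous markers 1 of 10 rose in stiff, the basal keratin KRT14 (edgeR adjusted p = 0.0281). Over all genes tested 0.451% were called. The KRT14 call was lost in 8 of 17 other settings, and 1 more gave it no adjusted p. Among the 8 were limma-voom, a correction for GC content, and leaving out stiff replicate 1, stiff replicate 2, soft replicate 1 or soft replicate 3. Log2 fold changes above 0 were found for 5 of the 10 squamous markers, with a median of 0.02. TP63 (−0.12), EPCAM (−0.09), ITGA6 (−0.06), SFN (−0.22) and DSG3 (−0.11) were below 0. KRT5 (log2 fold change 0.32) and KRT17 (0.46), basal keratins like KRT14, had an unadjusted p under 0.05 and did not pass the test. Such an unadjusted p was found for 9.51% of all genes. Merkel, endothelial, erythroid, fibroblast and immune markers gave 0 calls each in edgeR over 5, 5, 4, 5 and 5 genes tested, with unadjusted p under 0.05 for CLDN5 and HBA2. The part of these background levels in the results below was not tested. In bulk vesicle RNA, fewer vesicles with a transcript and less of it per vesicle cannot be told apart.

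None of the 8 channel genes differed detectably between vesicles of stiff and soft Matrigel. In edgeR's quasi-likelihood test, 0 of 8 had an adjusted p under 0.05, and 0 of 8 had an unadjusted p under 0.05. Limma-voom also called 0, as did DESeq2, which gave an adjusted p to PIEZO1 and PIEZO2 alone. Over all 31074 genes tested 0.451% were called, 0.286% as higher and 0.164% as lower in stiff, and 9.51% had an unadjusted p under 0.05. In CPM, read counts scaled to library size with TMM factors, the groups overlapped for every one of the 8, where 14.1% of all genes had groups that did not overlap. The median log2 fold change of the 8, stiff over soft, was 0.04, beside −0.00484 for all genes tested, and 6 of 8 were above 0. Scaled by library totals alone, 0 of 8 were above 0, beside a median of −0.27 for all genes. The plot of CPM by library shows the values behind these counts.

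**Figure D1:**
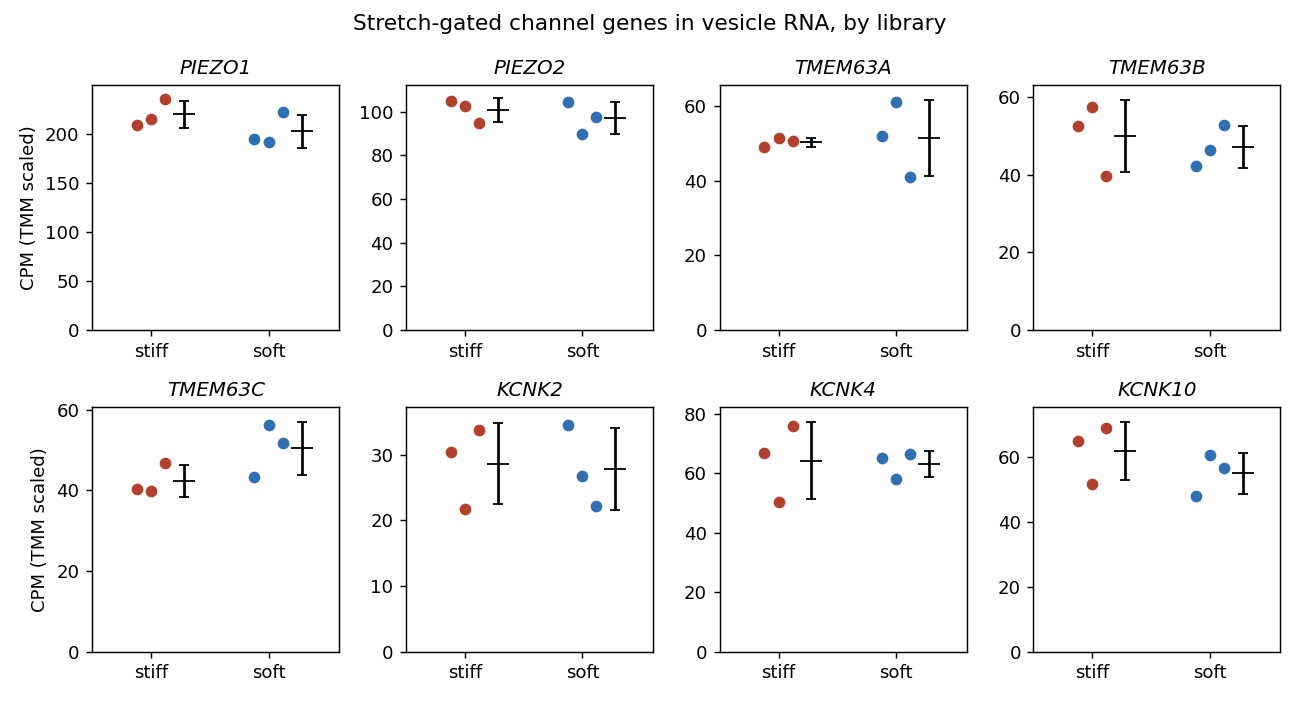
CPM scaled by TMM of each channel gene in the 3 stiff libraries (red, left) and the 3 soft libraries (blue, right), in replicate order, with the group mean and SD in black; each axis starts at 0. The groups overlap in every panel, and PIEZO1 is the most abundant by CPM, between 191 and 235.

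PIEZO1, the channel named in the series title, had the most counts of the 8. They were 507, 573 and 619 in stiff libraries and 531, 528 and 589 in soft libraries. Scaled, these were 208, 215 and 235 CPM in stiff and 195, 191 and 222 CPM in soft. The third soft library lay above 2 of the stiff ones, and the other soft libraries lay below all stiff ones. The means were 219.6 ± 14.0 CPM in stiff and 203 ± 16.9 CPM in soft (SD, n = 3 each). Its change on the log2 scale, stiff over soft, was 0.12 ± 0.075 (SE; adjusted p = 0.659 by edgeR), a ratio of 1.08 with a 95% interval of 0.978 to 1.20. A rise of PIEZO1 of more than 1.20-fold thus lies outside the interval of this fit, while one of a few percent or none lies inside it. That limit depends on the fit and the libraries, and a larger rise is not excluded. Without robust estimation the SE was 0.088, and without soft replicate 3 the log2 fold change was 0.19 ± 0.081 (SE). The gene lies on chromosome 16 (88715338 to 88785220, GRCh38, minus strand), and its exons span 11.3 kb when all transcripts are joined.

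The PIEZO1 fold change was close to the median of genes of its base composition. The longest PIEZO1 transcript is 64.3% G and C. For 2045 tested genes with a GC content within 3 percentage points of it, the median log2 fold change was 0.11, against 0.12 for PIEZO1. With a GC correction in the fit, the log2 fold change of PIEZO1 was 0.01 ± 0.068 (edgeR adjusted p = 0.981). Over all genes the median log2 fold change was −0.04 at a GC content of 35% to 40% and 0.18 at 65% to 70%.

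PIEZO2, the touch channel, had 255, 274 and 249 counts in stiff and 285, 248 and 259 in soft. Its means were 100.8 ± 5.38 CPM in stiff and 97.3 ± 7.36 CPM in soft (SD, n = 3 each). The stiff values lay almost wholly within the range of the soft ones. On the log2 scale PIEZO2 differed by 0.05 ± 0.093 (SE; adjusted p = 0.921 by edgeR), a ratio of 1.04 with an interval of 0.911 to 1.18. PIEZO2 lies on chromosome 18 (10666483 to 11148762, minus strand) and has the longest joined exons of the 8, 14.8 kb.

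The balance of the PIEZO genes, which needs no scaling for depth, was alike in both groups. It is not free of base composition. Genes of like GC content had a median log2 fold change of 0.11 for PIEZO1 and −0.01 for PIEZO2, and the part of this in the balance was not tested. PIEZO1 made up 66.5%, 67.7% and 71.3% of the PIEZO counts in stiff libraries and 65.1%, 68.0% and 69.5% in soft libraries. These ranges overlapped broadly. The means were 68.5% ± 2.50 in stiff and 67.5% ± 2.24 in soft (SD, n = 3 each), a difference of 0.976 percentage points (two-sided exact permutation p = 0.7, where 0.1 is the smallest possible). The sign of that difference changed when the third stiff library (−0.431) or the first soft library (−0.250) was left out.

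Among the TMEM63 genes, TMEM63C stood lowest in stiff relative to soft, without passing the test. TMEM63C, on chromosome 14 (77116568 to 77259495, GRCh38), is known from kidney podocytes and neurons. It had 98, 106 and 123 counts in stiff and 118, 155 and 137 in soft, or 40.3, 39.8 and 46.8 CPM in stiff and 43.3, 56.1 and 51.7 CPM in soft. The third stiff library was above the first soft one, and all other stiff values were below all soft ones. TMEM63C differed by −0.25 ± 0.13 on the log2 scale (SE; adjusted p = 0.548 by edgeR), a ratio of 0.840 with an interval of 0.701 to 1.01. Its like-GC genes had a median of 0.03, and with the GC correction TMEM63C stood at −0.27 (adjusted p = 0.523). Leaving out single libraries moved TMEM63C between −0.35, without soft replicate 1, and −0.16, without soft replicate 2. Of all genes tested, 10.8% had a smaller p than TMEM63C.

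TMEM63A and TMEM63B, which are broadly expressed and matter in myelin and in the developing brain, had ratios near 1. TMEM63A lies on chromosome 1 (225845536 to 225882369) and TMEM63B on chromosome 6 (44126914 to 44155519). TMEM63A had 119, 137 and 133 counts in stiff and 142, 169 and 109 in soft. Its 3 stiff libraries were close together, at 50.3 ± 1.27 CPM, inside the wide range of soft, at 51.5 ± 10.07 CPM (SD, n = 3 each). The log2 fold change of TMEM63A was −0.03 ± 0.13 (SE; edgeR adjusted p = 0.966). TMEM63B had 128, 153 and 104 counts in stiff and 115, 128 and 140 in soft, or 49.9 ± 9.26 CPM in stiff and 47.1 ± 5.34 CPM in soft. Its stiff libraries included both the highest and the lowest of the 6 CPM values. The log2 fold change of TMEM63B was 0.08 ± 0.13 (adjusted p = 0.905).

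The stretch-gated potassium channels also showed no detectable difference. KCNK2 lies on chromosome 1 (215005775 to 215237093), KCNK4 on chromosome 11 (64291302 to 64300031) and KCNK10 on chromosome 14 (88180103 to 88326907). KCNK10 had the largest positive log2 fold change of the 8, 0.17 ± 0.12 (SE; edgeR adjusted p = 0.708), from 158, 138 and 181 counts in stiff and 131, 167 and 150 in soft. Its means were 61.9 ± 8.93 CPM in stiff and 55.03 ± 6.36 CPM in soft (SD, n = 3 each), with an interval of the ratio from 0.953 to 1.32. The second stiff library was below 2 of the soft ones. Leaving out single libraries moved KCNK10 between 0.08, without soft replicate 1 or stiff replicate 3, and 0.28, without stiff replicate 2. It was no longer the highest of the 8 without stiff replicate 1, stiff replicate 3, soft replicate 1 or soft replicate 3. KCNK2 had the fewest counts, 74, 58 and 89 in stiff and 94, 74 and 59 in soft. Its ratio of 1.03 had the widest interval of the 8, 0.815 to 1.29 (adjusted p = 0.974). KCNK4 had 162, 134 and 199 counts in stiff and 177, 160 and 176 in soft, with a ratio of 1.02 and an interval of 0.868 to 1.19 (adjusted p = 0.977). Its like-GC genes had a median log2 fold change of 0.15, against 0.02 for KCNK4, and the GC correction put KCNK4 at −0.11 (adjusted p = 0.838). Within the stiff group, the second library was the lowest for KCNK2, KCNK4 and KCNK10 alike, while in soft a different library was lowest for each.

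**Figure D2:**
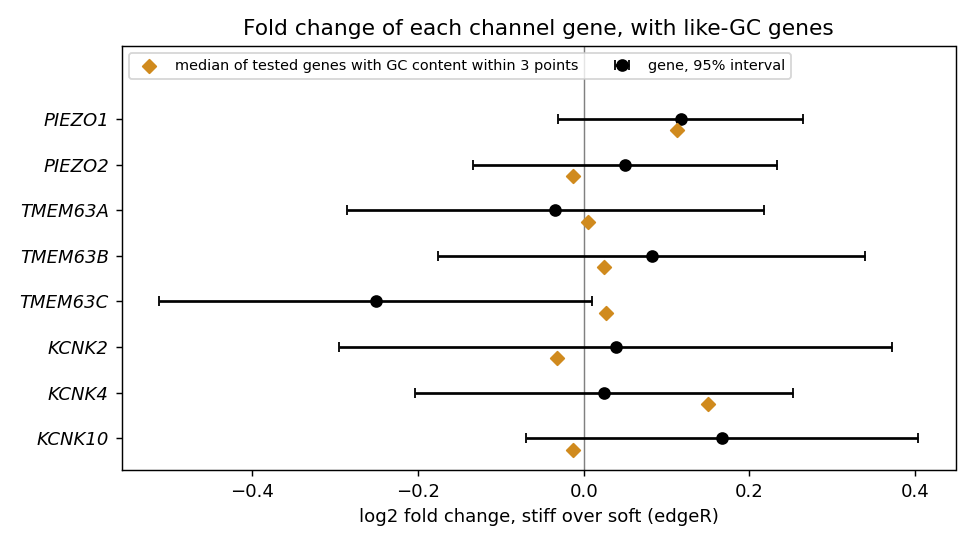
Log2 fold change of each channel gene, stiff over soft, with its 95% interval (black), and the median log2 fold change of tested genes with a GC content within 3 percentage points (orange). Every interval includes 0, and the PIEZO1 value of 0.12 lies at the like-GC median of 0.11.

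Other processing left these results without a call, with 1 exception. Over 17 other settings 0 called PIEZO1, and TMEM63C was the only one of the 8 called anywhere, under library totals alone (−0.52, edgeR adjusted p = 0.00612). That setting shifted the median of all genes down to −0.27, and called 4163 of 31074 genes lower and 31 higher. Leaving out single libraries moved PIEZO1 between 0.07, without stiff replicate 3, and 0.19, without soft replicate 3, always above 0. Without soft replicate 3 its unadjusted p was 0.0185 and its adjusted p 0.369 (edgeR). Leaving out single libraries also turned the sign of KCNK2, KCNK4, PIEZO2, TMEM63A and TMEM63B at least once.

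**Figure D3:**
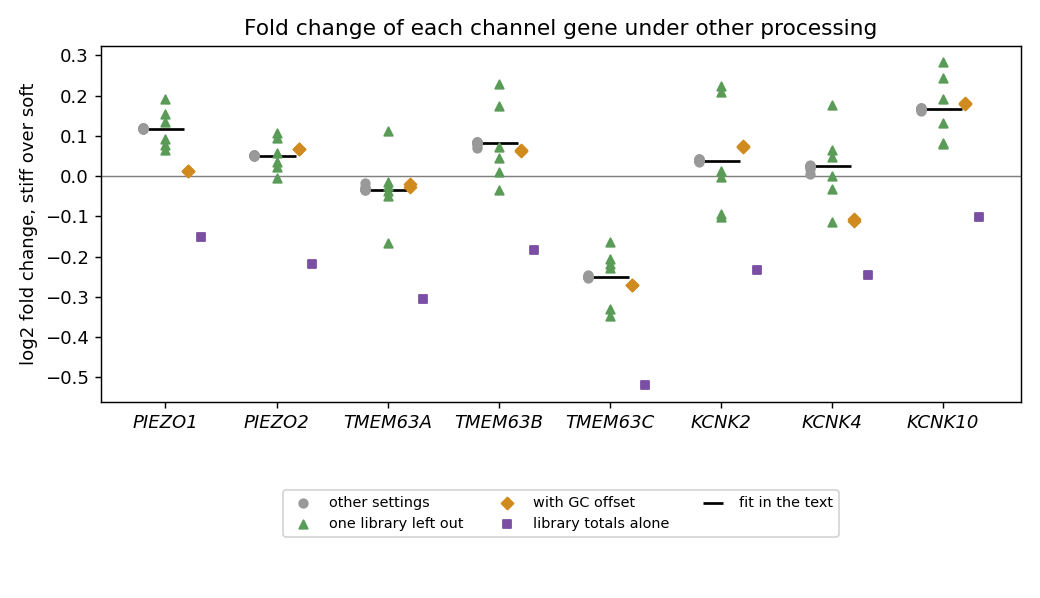
Log2 fold change of each channel gene, stiff over soft, in the fit described in the text (black bar) and under 17 other settings, grouped by kind (grey, one setting changed; green, one library left out; orange, GC offset; purple, library totals alone). Library totals alone put all 8 genes below 0, and the GC offset moves PIEZO1 and KCNK4 down.

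Replicates of these genes varied more than counting alone gives in most cases. The coefficient of variation of CPM within a group ran from 2.52% to 22.2%, and the one that Poisson counting gives ran from 4.22% to 11.8%. It was the larger in 12 of 16 pairs of gene and group. PIEZO1, with the most counts, had 6.38% in stiff and 8.32% in soft, and KCNK2, with the fewest, had 21.7% in stiff and 22.2% in soft. Over all genes with enough counts, soft replicate 3 differed most from its group. Its chi-square per degree of freedom was 3.86 against soft replicate 1 and 2.86 against soft replicate 2. Every other pair within a group had 1.53 to 1.70.

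Per kb of exon the order was KCNK4, PIEZO1, TMEM63B, TMEM63C, KCNK2, KCNK10, PIEZO2 and TMEM63A. KCNK4 had 62.7 ± 12.4 counts per kb in stiff and 65.0 ± 3.62 in soft, and PIEZO1 had 50.2 ± 4.99 in stiff and 48.6 ± 3.05 in soft (SD, n = 3 each; no scaling for depth). KCNK4 was above PIEZO1 in 6 of 6 libraries, although their ranges overlapped. The PIEZO1 range, from 44.9 per kb, lay apart from that of TMEM63B, which reached 34.6. TMEM63B was above TMEM63C in 6 of 6 libraries, with overlapping ranges. TMEM63C, KCNK2, KCNK10 and PIEZO2, with means over the 6 libraries between 17.7 and 19.3 per kb, were not separated beyond the spread of the libraries. TMEM63A was lowest at 12.5 ± 0.914 in stiff and 13.5 ± 2.91 in soft, below PIEZO2 in 6 of 6 libraries. With the longest transcript as the length, the leading 3 genes kept their order, PIEZO2 and TMEM63A came next, and KCNK10 was lowest.

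The highest levels per kb were those of the GC-rich genes. KCNK4 and PIEZO1, at the top, have the highest GC contents of the 8, 66.1% and 64.3%. PIEZO1 exceeded 97.7% to 99.0% of the olfactory receptor genes per kb, depending on the library, and KCNK4 98.7% to 100%. TMEM63A exceeded 41.7% to 74.7% of them and so lay in the midst of the olfactory receptor genes. KCNK2 exceeded 67.7% to 90.4%, KCNK10 69.4% to 89.9%, TMEM63C 74.2% to 89.6%, PIEZO2 75.3% to 81.1% and TMEM63B 90.2% to 96.7%. Among 170 protein-coding genes of chromosome 16 with a GC content within 3 points, PIEZO1 was at percentiles of 80.6 to 87.1. Those 170 genes had medians of 31.2 to 36.9 counts per kb, well above the olfactory receptors. KCNK4 was at percentiles of 55.2 to 87.9 among 116 like genes of chromosome 11. PIEZO2 and KCNK2, which are poorer in G and C, ranked about as high in their own classes at lower levels. PIEZO2 was at percentiles of 81.5 to 86.2 among 65 like genes of chromosome 18, and KCNK2 at 71.1 to 92.6 among 418 of chromosome 1. With the joined exons as the length, KCNK10 (52.3 to 81.1) and TMEM63B (53.5 to 80.2) were above the middle of their classes in every library. TMEM63C (23.8 to 54.8) and TMEM63A (12.0 to 41.2) lay below the middle in most libraries. The choice of length moved TMEM63A most, to a mean percentile of 63.9 with the longest transcript, against 27.1 with the joined exons. The longest transcript lowered KCNK10 to a mean percentile of 54.4, against 69.97, and no longer above the middle in every library. With like genes of all chromosomes, the mean percentile of PIEZO2 was 70.2, against 84.4 with those of its own chromosome. In the same comparison PIEZO1 was at 77.4, against 83.3, and KCNK2 at 84.5, against 82.8. All 8 genes lay within the spread of protein-coding genes of their GC content, and none was measured far above it.

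**Figure D4:**
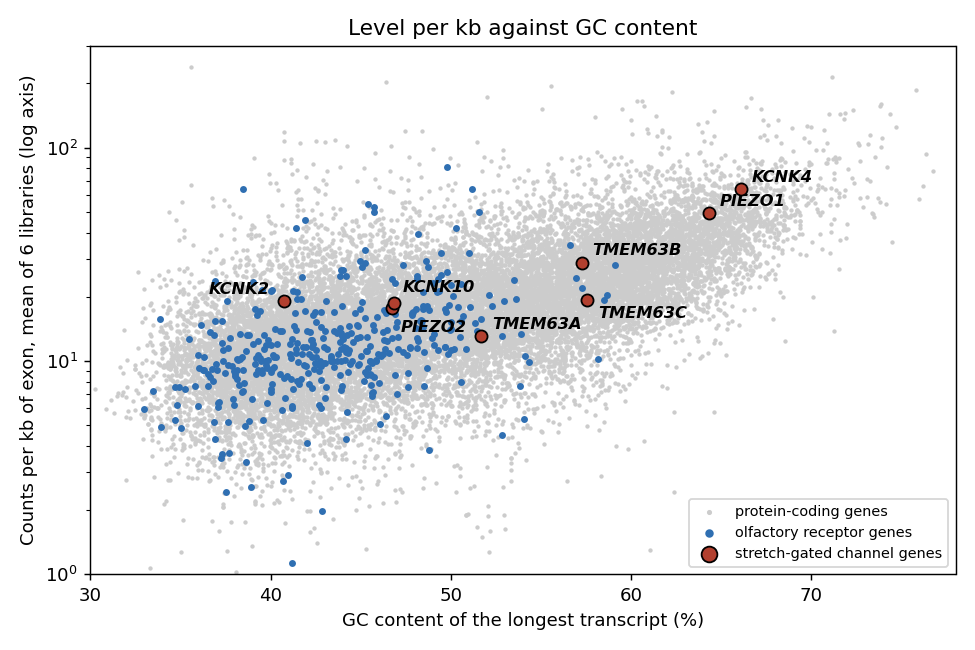
Counts per kb of exon (mean of the 6 libraries, log axis) against the GC content of the longest transcript in percent, for protein-coding genes (grey), 396 olfactory receptor genes (blue) and the 8 channel genes (red); genes outside the axes are not drawn. KCNK4 and PIEZO1 lie at the GC-rich end, and all 8 channel genes lie inside the grey cloud.

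Overlapping genes bear on some of these counts. KCNK4 shares 61.9% of its joined exons with the read-through gene KCNK4-TEX40, which runs on into CATSPERZ. KCNK4-TEX40 had 177, 168 and 223 counts in stiff and 229, 213 and 221 in soft. The sum of KCNK4 and CATSPERZ was 195, 176 and 242 in stiff and 230, 205 and 231 in soft, which is 0.962 to 1.10 times the read-through count. The counts of KCNK4 and KCNK4-TEX40 are therefore uncertain and not independent. TMEM63C shares 275 bp of exon (4.32%) with CIPC and 363 bp (5.70%) with AC007375.1, both on its own strand. For PIEZO2, TMEM63A, TMEM63B and KCNK10, no single overlapping gene shared more than 2.51% of the joined exons. On the other strand of PIEZO1, GENCODE 29 has 3 antisense genes that share exon with it, AC138028.4 over 1427 bp (12.6% of the joined PIEZO1 exons), AC138028.2 over 695 bp (6.15%) and AC138028.5 over 111 bp (0.983%). These 3 names are not among the gene symbols of the count table. CTU2 shares 49 bp of PIEZO1 exon, also on the other strand, and the antisense gene LOC339059 (PIEZO1-AS1 in RefSeq) lies inside PIEZO1 without touching its exons in GENCODE 29. LOC339059 had 31, 57 and 69 counts in stiff and 72, 53 and 47 in soft, with a log2 fold change of −0.06 ± 0.20 (SE; edgeR adjusted p = 0.962). The strand setting of the counting was not given in the sources used here, so reads of a gene and its antisense partner cannot be told apart.

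The genes whose pattern over the 6 libraries was nearest to that of PIEZO1 were ZNF469, CELSR1 and HSPG2. Nearness was the root-mean-square difference of centred log2 CPM, among 541 protein-coding genes of PIEZO1-like abundance. It was 0.0192 for ZNF469, 0.0287 for CELSR1 and 0.0325 for HSPG2, against a median of 0.121 for all 541. ZNF469 encodes a zinc finger protein, CELSR1 a cadherin of planar cell polarity, and HSPG2 the basement membrane proteoglycan perlecan. Their GC contents were 66.2%, 61.4% and 64.5%, close to the 64.3% of PIEZO1, and their joined exons were 13.3, 12.8 and 18.1 kb long. Such nearness over 6 libraries is a description of these libraries.

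Genes that act with or beside these channels gave 1 call in 60 genes of 4 lists, where 0.451% of all genes were called. Of 11 PIEZO regulators 0 were called by edgeR, and 0 had an unadjusted p under 0.05, with a median log2 fold change of 0.06. PKD2, a polycystin channel with the smallest p of that list, had 20.1 ± 1.79 CPM in stiff and 16.0 ± 1.92 CPM in soft (SD, n = 3 each; adjusted p = 0.645). MDFI, whose family member MDFIC is an auxiliary subunit of PIEZO channels, was the highest of the list per kb and had 42.2 CPM in stiff and 42.4 CPM in soft. MTMR2, a phosphoinositide phosphatase, followed per kb with 39.1 CPM in stiff and 37.5 CPM in soft.

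Of 12 other tandem-pore potassium channel genes 0 were called by edgeR and 3 had an unadjusted p under 0.05, against 9.51% of all genes, with a median log2 fold change of 0.06. KCNK12 came closest, with 335, 394 and 329 counts in stiff and 308, 311 and 315 in soft (log2 fold change 0.25 ± 0.086, SE; edgeR adjusted p = 0.205). Its stiff counts all lay above the soft ones, and 14.1% of all genes had groups that did not overlap in CPM. The others, named after their values were seen, were KCNK3 at 0.29 and KCNK5 at −0.42. KCNK15, the highest of the list per kb, had 63.4 CPM in stiff and 54.97 CPM in soft. KCNK7, the next, had 32.6 CPM in stiff and 30.3 CPM in soft.

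Of 21 other channel genes proposed to respond to force, with relatives of TMC1, 1 was higher in stiff and 0 lower, with a median log2 fold change of 0.000255. An unadjusted p under 0.05 was found for 4 of 21. Besides the called gene these were, named after their values were seen, ASIC1 (0.24), ASIC3 (0.32) and PANX1 (−0.28). The called gene was PKD1, the polycystin-1 gene, with 388 ± 9.80 CPM in stiff and 315 ± 15.6 CPM in soft (SD, n = 3 each; edgeR adjusted p = 0.00935). PKD1 has near-identical pseudogene copies and is uncertain. Its call was lost in 7 of 17 other settings, among them the GC correction and leaving out stiff replicate 1, stiff replicate 2 or soft replicate 2. Over all 17 the edgeR, DESeq2 or limma adjusted p of PKD1 ran from 0.000217 to 0.750. LRRC8A, the obligate subunit of volume-regulated anion channels and next to PKD1 per kb, had 96.7 CPM in stiff and 98.6 CPM in soft (adjusted p = 0.963). Of 16 calcium effectors known downstream of PIEZO1, among them calpains, calmodulins, calcineurin and NFAT genes, 0 were called by edgeR and 0 had an unadjusted p under 0.05, with a median of 0.00307. NFATC2, a calcineurin-activated transcription factor, had the smallest p, with 101.4 CPM in stiff and 89.9 CPM in soft (adjusted p = 0.575). PPP3CC, a catalytic subunit of calcineurin, had 34.2 CPM in stiff and 34.0 CPM in soft (adjusted p = 0.996).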

How the data were processed

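The authors deposited 1 table of unnormalized read counts, with a row for each gene symbol and a column for each of 6 libraries. Per the labels' protocols, total RNA of vesicles was made into directional libraries. Per the submitters' processing notes, FastQC 0.11.7, Trim Galore 0.4.2, cutadapt 1.9.1, STAR 2.6.1e, featureCounts 1.6.2 and DESeq2 1.26.0 were used with hg38. For roles, annotation and strand setting the sources used here give no statement.

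Stiff was compared with soft in edgeR 4.0.16 (R 4.3.3) with filterByExpr, TMM and robust quasi-likelihood fits, checked on simulated counts. Benjamini-Hochberg adjustment ran over the 31074 genes tested, and an adjusted p under 0.05 was a call. Alternatives used DESeq2 1.42.0 and limma 3.58.1. Joined exon lengths and GC content of the longest transcript came from GENCODE 29 for 27151 symbols. Coding windows were open reading frames as long as the annotated coding sequence. Counts per kb are not scaled for depth. Intervals cover these libraries, and reads from PCR, with no molecular identifiers, may repeat a molecule.

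The genes and lists were chosen with earlier results of these data known. Named were all 8 channel genes, called genes of each list, its 2 highest per kb and its smallest p, and the 3 genes nearest to PIEZO1. In the descriptions 2 stiff libraries carry the same replicate number, and titles were used.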

Additional observations from a re-analysis of the deposited data

How the results depend on the processing

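Over 17 other settings PIEZO1 was called in 0 (adjusted p from 0.170 to 0.983), with log2 fold changes above 0 except under library totals alone (−0.15), where the median of all genes was −0.27. Leaving out single libraries gave 0.07 to 0.19, the last without soft replicate 3 (edgeR unadjusted p = 0.0185, adjusted p = 0.369). Library totals alone also put PIEZO2 (−0.22), TMEM63B (−0.18), KCNK2 (−0.23), KCNK4 (−0.25) and KCNK10 (−0.10) below 0, and gave 1 call among the 8, TMEM63C (−0.52, adjusted p = 0.00612). Over all 31074 genes tested, library totals alone called 4163 lower and 31 higher. In the context lists it called lower 2 of 12 potassium channels, 7 of 21 other proposed channels and 3 of 16 calcium effectors. The 1 higher call of the fit in the text, PKD1, became 0. That single higher call was also 0 without robust estimation, with the GC offset, with the replicate block and GC offset together, and without stiff replicate 1, stiff replicate 2 or soft replicate 2, so it ranged from 0 to 1. KCNK4 was −0.11 with the GC offset, with and without the block. Signs also turned when single libraries were left out, with ranges of −0.101 to 0.223 for KCNK2, −0.113 to 0.177 for KCNK4, −0.00395 to 0.107 for PIEZO2, −0.167 to 0.111 for TMEM63A and −0.0347 to 0.228 for TMEM63B. The PIEZO1 share difference ranged from −0.431 to 1.96 percentage points. The PIEZO1 percentile averaged 83.3, against 90.3 with the longest transcript and 77.4 with genes of all chromosomes. The replicate block moved calls over all genes to 111 higher and 62 lower, against 89 and 51. Same-numbered libraries did not deviate together (r from −0.00363 to 0.00346), and PIEZO1 stayed at 0.12 with the block. DESeq2 gave no adjusted p for 6 of the 8.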
